A study of Rattus norvegicus with 6 samples.

Results

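Of 10 receptor genes for extracellular nucleotides, the P2X and P2Y purine receptors, 9 had a probe on arrays that compared cells grown from the brainstem of 2 rat strains, the spontaneously hypertensive rat (SHR) and the normotensive Wistar Kyoto rat (WKY), its usual control. The members were chosen by name. Every array probe whose single gene symbol was P2rx2, P2rx3, P2rx4, P2rx7, P2ry1, P2ry2, P2ry6, P2ry12, P2ry13 or P2ry14 was taken, which gave 11 of the 33849 probes in the table (5 for 4 P2X genes and 6 for 5 P2Y genes). P2ry13 had no probe with that symbol. P2rx3 and P2ry1 had 2 probes each and the other 7 genes 1 each, and all 11 probes passed the filter on valid values.

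Blood pressure rises with age in the inbred SHR, and the series asks which transcripts differ between the strains in cells grown from the brainstem. Each strain had 3 single-colour CodeLink arrays, and each array was hybridised with RNA pooled from 3 dishes of cells. No treatment, age, sex, culture time or added agent is named for either group in the labels, and both strains were cultured. The submitters call the 3 pools of a strain independent biological replicates, without naming litters, animals or culture days. A p-value here covers only variation among those pools, which may be partly technical. A pooled RNA signal cannot tell fewer cells of a type from less RNA per cell.

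P2X receptors are trimeric cation channels that open when ATP binds, and P2Y receptors are G protein coupled receptors for ATP, ADP, UTP, UDP or UDP-sugars. In the brainstem, ATP released by neurons and astrocytes is known as a transmitter of central chemosensitivity and of visceral afferent input to cardiovascular and respiratory neurons. P2X2 and P2X3 are the channels of sensory and many central neurons. P2X4, P2X7, P2Y6, P2Y12 and P2Y13 are best known in the brain from microglia, and P2Y1 from astrocytes and neurons.

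The strains did not overlap at 1 probe each of P2ry1 and P2ry2 (20% of the 10 receptor probes with values on all arrays, against 13.4% of all such probes), and P2rx3 had the largest difference of the members, though none passed the test. The RefSeq sequences upstream of these 3 genes (GRCr8, the reference rat genome, which is of neither strain) are shown because their values are described most fully. Of the 10 members, 7 had an entry in the RefSeq promoter table. Each line gives the 250 bases before an annotated start, 5′ to 3′ on the strand of the gene, and capitals mark the GC box GGGCGG or its reverse complement CCGCCC. P2ry1 lies on the plus strand at chr2:147391411-147391660, P2ry2 on the minus strand at chr1:164779489-164779738, and P2rx3 on the minus strand with starts after chr3:90531316-90531565 and chr3:90529310-90529559.
P2ry1: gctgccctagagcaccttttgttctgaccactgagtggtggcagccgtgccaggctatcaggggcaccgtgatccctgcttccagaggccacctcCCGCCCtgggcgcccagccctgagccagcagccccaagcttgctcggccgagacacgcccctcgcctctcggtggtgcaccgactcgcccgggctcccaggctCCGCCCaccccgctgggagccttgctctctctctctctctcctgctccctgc
P2ry2: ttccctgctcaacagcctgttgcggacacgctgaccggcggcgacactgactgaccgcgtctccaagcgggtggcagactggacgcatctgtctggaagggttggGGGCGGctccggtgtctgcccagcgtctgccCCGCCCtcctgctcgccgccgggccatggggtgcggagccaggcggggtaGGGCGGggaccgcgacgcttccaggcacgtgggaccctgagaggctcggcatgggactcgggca
P2rx3 first start: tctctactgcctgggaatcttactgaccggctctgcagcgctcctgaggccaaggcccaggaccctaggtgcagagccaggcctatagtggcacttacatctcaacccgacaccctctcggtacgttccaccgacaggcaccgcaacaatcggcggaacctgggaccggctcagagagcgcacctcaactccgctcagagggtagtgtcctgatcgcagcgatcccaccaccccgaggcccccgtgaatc
P2rx3 second start: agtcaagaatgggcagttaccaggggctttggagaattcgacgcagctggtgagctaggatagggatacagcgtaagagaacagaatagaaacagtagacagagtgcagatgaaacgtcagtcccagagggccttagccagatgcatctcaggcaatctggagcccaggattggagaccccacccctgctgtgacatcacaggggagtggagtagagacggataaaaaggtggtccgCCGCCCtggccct

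Searched on both strands, GGGCGG occurred 2 times before P2ry1, 3 times before P2ry2, once before the second start of P2rx3 and 0 times before its first start. It occurs in 30.5% of the 33469 upstream windows of this length in the table. The TATA box TATAAA (in 12.9% of windows) and GGAAGT, the core bound by Ets factors such as PU.1 (in 19.2%), were not found in these 4 windows. As 1 of the 3 motifs was found, no overlap between motifs arose, and a match is only a description of the letters. GC content was 69.2% for P2ry1, 71.2% for P2ry2, and 62.4% and 54.4% for the first and second start of P2rx3, against a median of 51.2% over all windows.

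None of the 11 receptor probes differed between the strains at an adjusted p of 0.05 in limma, where 0 of the 33249 probes tested passed (0% called) and 2545 had an unadjusted p under 0.05. At an unadjusted p under 0.05 there was 1 receptor probe, higher in SHR, against 7.65% of all probes in either direction, 3.65% higher and 4.01% lower in SHR. The 3 values of one strain lay wholly apart from those of the other at 2 of the 10 receptor probes with values on all arrays, 1 in each direction, against 13.4% of such probes overall (6.07% higher and 7.3% lower in SHR). With so few probes, these shares are near the background. The median difference of the 11 probes was -0.09 (log2, SHR minus WKY), beside -0.0099 over all probes. Both ends of the 95% interval lay within 1 log2 unit (2-fold) at 10 of the 11 probes, the brighter P2rx3 probe being the exception. Each difference below is on the log2 scale and is given with its standard error from limma.

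**Figure D1:**
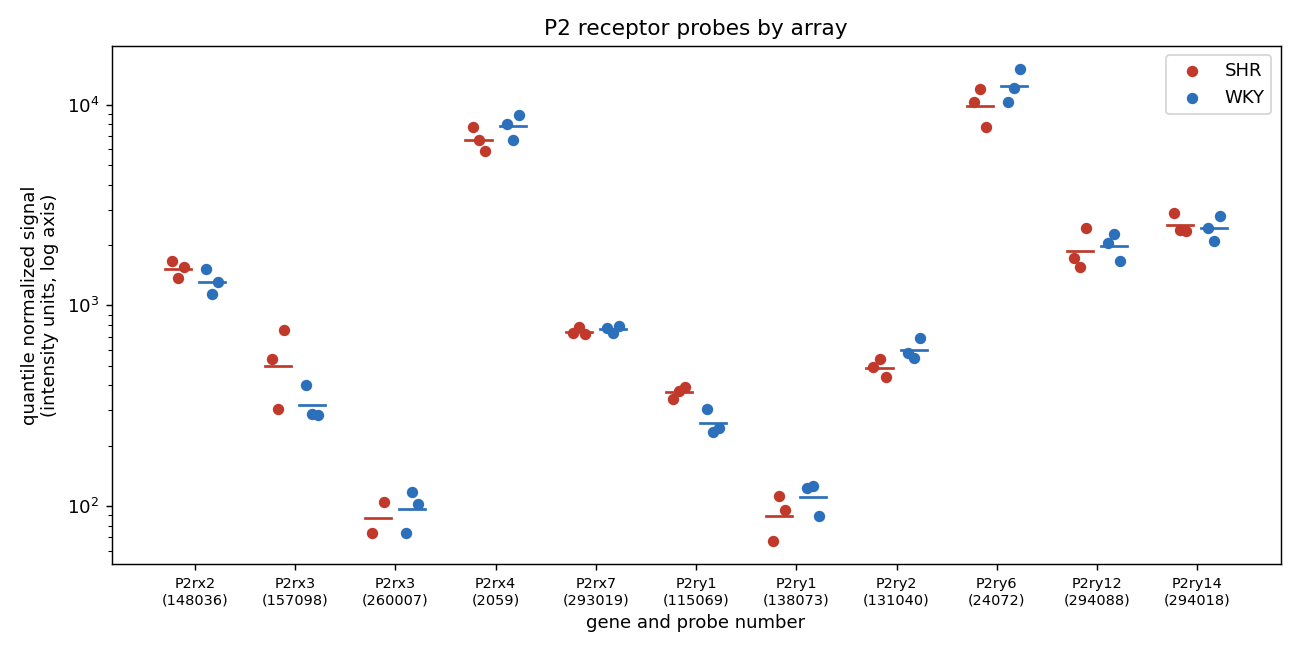
Quantile normalized signal (intensity units, log axis) of the 11 receptor probes on each array, with SHR in red, WKY in blue and bars at the mean of log2 values of each strain. At probe 115069 of P2ry1 the 3 SHR points lie above the 3 WKY points, at P2ry2 below them, and at the other probes the strains overlap; SHR 3 of probe 260007 was not above 0 and is not drawn. Levels of different probes are not comparable.

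Among the channels of neurons, P2rx2, a subunit that pairs with P2X3 in sensory neurons, had signals of 1671, 1367 and 1545 on the SHR arrays against 1514, 1143 and 1307 on the WKY arrays. The ranges overlapped, with SHR 2 inside the WKY range. The difference was 0.21 ± 0.16, with a 95% interval from -0.17 to 0.60 (adjusted p = 0.752 in limma), and it was 0.11 without WKY 2 and 0.40 in unnormalized intensities.

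P2rx3, the subunit of ATP-gated channels in nociceptive and visceral afferent neurons, gave the largest difference of the members. At its brighter probe (157098) the signals were 543, 304 and 755 on the SHR arrays against 402, 287 and 283 on the WKY arrays. SHR 3 and SHR 1 were the highest arrays, and SHR 2 lay within the WKY range. The mean log2 signal of SHR was 8.96 ± 0.67 (SD, n = 3) and that of WKY 8.32 ± 0.29, a difference of 0.64 ± 0.35, or 1.56-fold, with an interval from -0.20 to 1.48. Its adjusted p was 0.693 in limma, and the difference was 0.34 without SHR 3 and 1.002 without SHR 2. The dimmer probe (260007), among the dimmest 25% of all probes, did not share this direction: it gave 73.2 and 105.2 on the SHR arrays against 73.8, 117.9 and 103.0 on the WKY arrays, a difference of -0.14 ± 0.28 that turned to 0.0091 without WKY 2. That fit left out SHR 3, whose entry was not above 0. The unnormalized signal there was 29.6, the lowest of the 6 arrays, on the array where the brighter probe was highest. With that value included, the difference was -0.72 in unnormalized, -0.87 in median-centred and -0.64 in loess-normalized intensities, at unadjusted p of 0.159, 0.122 and 0.238 in limma.

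The signal of P2rx3 followed that of P2rx6, another P2X subunit and a further member of the family, across the arrays. By a rule that sets each receptor's brightest probe against 168 genes of the purinergic and cell type lists, P2rx6 was the gene most alike, with Pearson's r of 0.99 over the 6 arrays. Both P2rx6 probes were highest on SHR 3 and SHR 1, at 1445 and 1082 for the brighter and 529 and 482 for the dimmer, and lowest on WKY 2, at 555 and 193. The P2rx6 differences were 0.58 ± 0.34 and 0.70 ± 0.31. The probes of P2rx1, an ATP-gated channel of smooth muscle and platelets, were highest on the same 2 SHR arrays, with differences of 0.13 ± 0.18 and 0.32 ± 0.20. None of these passed. All probes of an array share its hybridisation, and with 6 points and 168 candidate genes the r is only a description.

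**Figure D2:**
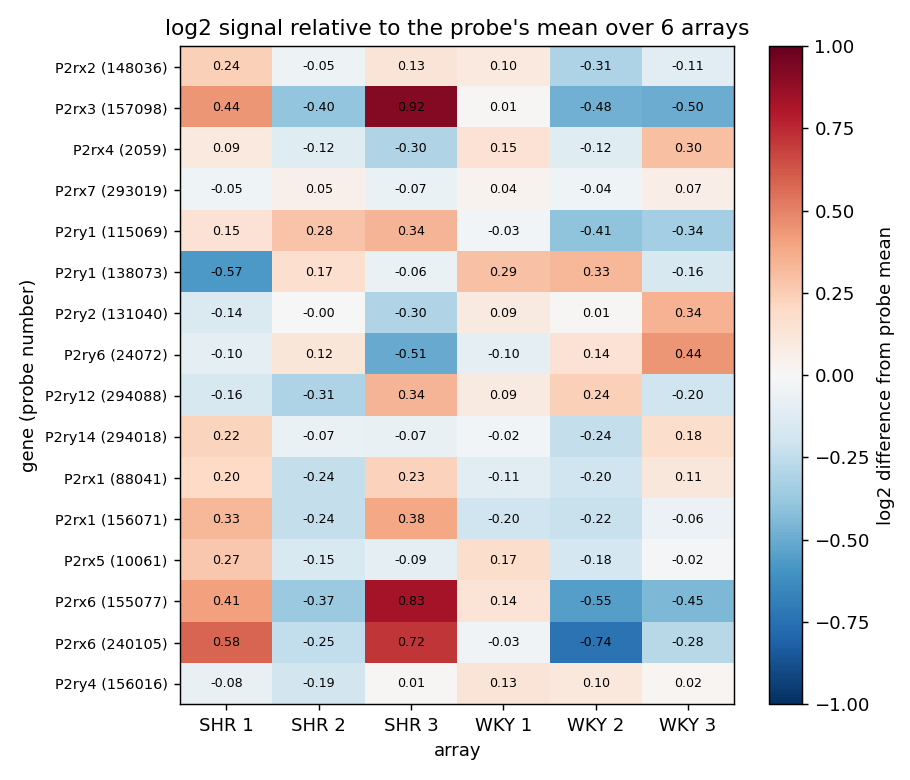
Log2 signal of each receptor probe relative to its own mean over the 6 arrays, for the described receptors and other P2 genes with values on all arrays; red is above and blue below the mean. The brighter P2rx3 probe reads 0.44, -0.40 and 0.92 on SHR 1 to SHR 3, beside 0.41, -0.37 and 0.83 for P2rx6 probe 155077.

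Several marker lists had their lowest or highest mean centred log2 level on SHR 1 and SHR 3, the arrays where P2rx3 was highest. The levels of neuronal, oligodendrocyte and, narrowly, microglia markers were lowest there. Those of endothelial and pericyte and of astrocyte markers were highest. Summed signals shared this only for oligodendrocyte and for endothelial and pericyte markers. The microglia sum was lowest on WKY 1 (311276). The neuronal sum was lower on WKY 1 (33199) than on SHR 1 (33657). The astrocyte sum was higher on WKY 2 (213371) than on SHR 1 (209242). The r with P2rx3 was -0.94 for oligodendrocytes, -0.89 for neurons, -0.80 for microglia and macrophages and 0.75 for astrocytes. Without the connexin gene Gjb6 the astrocyte level was highest on WKY 1, at 0.10. The mean centred log2 level of 11 endothelial and pericyte markers was 0.10, -0.06 and 0.07 on SHR 1, SHR 2 and SHR 3 and at most 0.01 on a WKY array (r = 0.93 with P2rx3 over 6 arrays, a description). Their summed signal was 7426 to 8481 in SHR and 7044 to 7945 in WKY, and Cdh5 of the 12 listed had no probe of that symbol. Markers of every list were read only at probes with values above 0 on all 6 arrays, so none could be at 0. In this list 7 genes were above and 4 below 0, with Kdr (0.92 ± 0.40) and Tie1 (0.38 ± 0.33) above and the dim probe of Rgs5 (-0.88 ± 0.37) and Tek (-0.50 ± 0.26) below. Dim second probes of Tie1 and Tek went the other way (-0.46 ± 0.36 and 0.69 ± 0.26). The mean centred log2 level of 10 neuronal markers was -0.25, 0.29 and -0.27 on SHR 1, SHR 2 and SHR 3. The WKY arrays were at -0.06, 0.25 and 0.05, so that the 2 arrays high in P2rx3 were the lowest by this level. The summed signal of these markers ranged from 29951 to 50658 in SHR and from 33199 to 47655 in WKY. Of the 14 neuronal markers listed, Rbfox3, Tubb3, Map2 and Syt1 had no probe of that single symbol. Of the 10 measured, 4 were above and 6 below 0, with a median of -0.12. Stmn2 (0.26 ± 0.15) and the dim probe of Nefh (0.40 ± 0.15) were above 0, and Eno2 (-0.53 ± 0.29) and the dim probe of Snap25 (-0.59 ± 0.33) below it. For 15 oligodendrocyte markers the levels were -0.57, 0.29 and -0.75 on the SHR arrays against 0.25, 0.52 and 0.25 on the WKY arrays, with summed signals of 88723 to 177034 in SHR and 167246 to 201701 in WKY. The 15 were likewise read only at probes above 0 on all arrays. Pdgfra (0.37 ± 0.16) was the 1 gene of this list above 0, and Enpp6 (-1.51 ± 0.48) and Mobp (-1.46 ± 0.51) were below it. The part of these cell types in the P2rx3 values was not tested.

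P2rx4, an ATP-gated channel of microglia with a role in pain after nerve injury, had signals of 7722, 6666 and 5857 on the SHR arrays against 8012, 6643 and 8907 on the WKY arrays. The strains overlapped, with WKY 3 highest and SHR 3 lowest. The difference was -0.22 ± 0.17, with an interval from -0.64 to 0.20 (adjusted p = 0.766 in limma), and it was -0.12 without SHR 3 or WKY 3.

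P2rx7, the low-affinity ATP channel that activates the inflammasome in microglia, varied least of all members. Its signals were 728, 778 and 717 on the SHR arrays against 770, 729 and 786 on the WKY arrays, so that the highest array exceeded the lowest by 1.10-fold. The SD within a strain was 0.059 (log2), and 1.81% of all probes had a smaller one. The difference was -0.04 ± 0.12, with an interval from -0.32 to 0.24, equal to between 0.80-fold and 1.18-fold, and it was 0.14 in unnormalized intensities, where the median of all probes was 0.12. P2rx4 and P2rx7 are neighbours on rat chromosome 12 in the GRCr8 annotation.

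P2ry1, the ADP receptor coupled to Gq, was the one member with an unadjusted p under 0.05. Its brighter probe (115069) had signals of 343.3, 376.6 and 392.3 on the SHR arrays against 304, 234 and 245 on the WKY arrays. All 3 SHR arrays lay above all 3 WKY arrays. The log2 means were 8.53 ± 0.10 (SD, n = 3) and 8.02 ± 0.20, a difference of 0.51 ± 0.15, or 1.43-fold, with an interval from 0.15 to 0.88. The unadjusted p was 0.0132 and the adjusted p 0.556 in limma, so it did not pass.

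The second probe of P2ry1 (138073), among the dimmest 25% of probes, had signals of 67.2, 112.5 and 95.7 on the SHR arrays against 122.5, 125.7 and 89.7 on the WKY arrays. Here SHR 1 was lowest and the strains overlapped, with a difference of -0.31 ± 0.24, against the direction of the first. It was -0.10 without SHR 1 and -0.51 in median-centred intensities (unadjusted p = 0.0429 in limma). The 2 probes of P2ry1 differed in sign, and at the dimmer one the interval included 0.

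**Figure D3:**
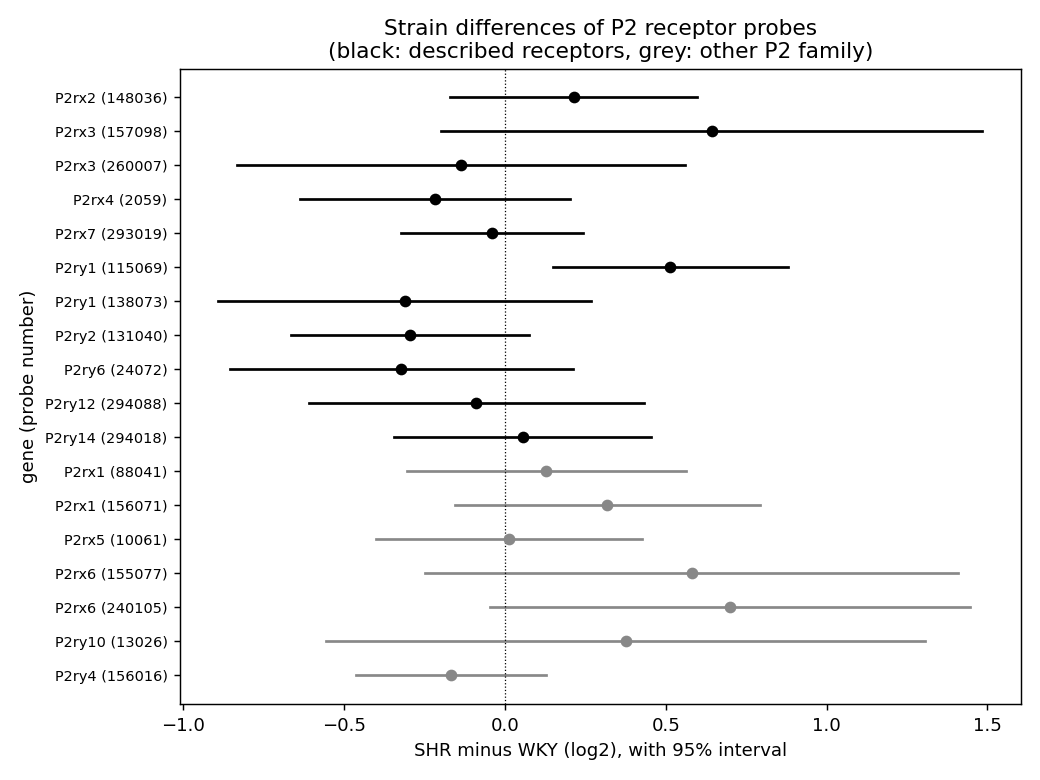
SHR minus WKY (log2) with 95% intervals for the 11 receptor probes (black) and 7 probes of other P2 genes (grey), by gene and probe number. Only the interval of P2ry1 probe 115069 lies wholly above 0, from 0.15 to 0.88, and that of the other P2ry1 probe spans 0, from -0.89 to 0.27.

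Marker lists of astrocytes, of fibroblasts and meningeal cells, and of microglia each had array levels that did not overlap between strains, as at the brighter P2ry1 probe, with SHR above WKY for the first 2 lists and below it for microglia. Its r over the 6 arrays, a description, was 0.95 with astrocytes (Gjb6 included), 0.89 with fibroblasts and meningeal cells and -0.95 with microglia. The dimmer P2ry1 probe did not share this, with r of -0.36, 0.0016 and 0.24 for the same lists. For fibroblasts and meningeal cells the mean centred level was -0.03, 0.37 and 0.51 on the SHR arrays against -0.17, -0.21 and -0.47 on the WKY arrays. For 11 astrocyte genes it was 0.08, 0.05 and 0.08 on the SHR arrays against -0.02, -0.08 and -0.12 on the WKY arrays. That separation rested on Gjb6: without it the levels were 0.08, -0.02 and -0.01 on the SHR arrays against 0.10, -0.09 and -0.05 on the WKY arrays, which overlapped. The median difference of the 11 genes was 0.06, and it turned to -0.04 in median-centred and -0.02 in loess-normalized intensities and to -0.03 without SHR 1. The summed astrocyte signal overlapped, at 205527 to 213634 in SHR and 204870 to 213371 in WKY, and 6 of the 11 genes were above 0, led by Gjb6 (1.28 ± 0.38), a connexin that is also in the list of nucleotide release, and Sox9 (0.49 ± 0.23), a transcription factor. Of the 12 markers listed, Fgfr3 had no probe of that symbol. Aldh1l1, an astrocyte enzyme of folate metabolism, went the other way at -0.45 ± 0.16, as did the glycolytic enzyme Aldoc at -0.20 ± 0.13. The part of these cell types in the P2ry1 value was not tested.

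P2ry2, the receptor for ATP and UTP, had signals of 492, 543 and 441 on the SHR arrays against 576, 547 and 690 on the WKY arrays. The 3 SHR values lay below the 3 WKY values, with SHR 2 and WKY 2 almost equal. The log2 means were 8.94 ± 0.15 (SD, n = 3) and 9.23 ± 0.18, a difference of -0.29 ± 0.15, with an interval from -0.66 to 0.07 (adjusted p = 0.689 in limma). In the unnormalized intensities the strains overlapped, at 470, 619 and 467 on the SHR arrays against 597, 517 and 585 on the WKY arrays.

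P2ry6, the UDP receptor that triggers phagocytosis in microglia, had signals of 10304, 12014 and 7761 on the SHR arrays against 10299, 12173 and 14969 on the WKY arrays. SHR 3 was the lowest array and WKY 3 the highest, while the other 2 arrays of each strain spanned nearly the same range. The difference was -0.32 ± 0.22, with an interval from -0.85 to 0.21 (adjusted p = 0.737 in limma), and it was -0.15 without SHR 3 and -0.18 without WKY 3. P2ry6 and P2ry2 are neighbours on rat chromosome 1, and their brightest probes varied together over the 6 arrays (r = 0.90, a description).

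P2ry12, the ADP receptor that guides microglial processes to sites of ATP release, had signals of 1723, 1552 and 2431 on the SHR arrays against 2053, 2274 and 1672 on the WKY arrays. SHR 3 was highest and SHR 2 lowest, so that both extremes came from SHR. The difference was -0.09 ± 0.22, with an interval from -0.61 to 0.43, and its direction turned without SHR 2 (0.05) or WKY 2 (0.01) and in unnormalized intensities (0.10). The gene most like it among the 168 was Cx3cr1, the fractalkine receptor of microglia, at r = 0.89 over 6 arrays. Cx3cr1 had signals of 1094, 915 and 1449 on the SHR arrays against 1346, 1178 and 1053 on the WKY arrays, again with both extremes in SHR. The mean level of all 19 microglia and macrophage markers did not follow P2ry12 (r = -0.13). The highest r of P2ry12 with a marker list was 0.80, with smooth muscle, also a description.

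P2ry14, the receptor for UDP-glucose, had signals of 2888, 2365 and 2354 on the SHR arrays against 2434, 2097 and 2803 on the WKY arrays. The strains overlapped over most of their range. The difference was 0.06 ± 0.17, with an interval from -0.34 to 0.46, and its direction turned without SHR 1 (-0.04) or WKY 2 (-0.05), while it was 0.225 in unnormalized intensities. P2ry12, P2ry13 and P2ry14 lie close together on rat chromosome 2.

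For the other receptors, the most alike of the 168 list genes over the 6 arrays were Kdr for P2rx2 (r = 0.958), Syn1 for P2rx4 (0.959), Slc29a2 for P2rx7 (0.927), Cd163 for P2ry1 (0.902), Cspg4 for P2ry6 (0.945) and Hoxa2 for P2ry14 (0.837). Each is the highest of 168 values over 6 points and is given as a description.

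Microglia and macrophage markers were measured for 19 of 25 listed genes, and the member receptors of these cells can be read beside them. The summed marker signal was 311931 to 315042 in SHR and 311276 to 338779 in WKY. The mean centred level was -0.05, -0.04 and -0.09 on the SHR arrays against -0.02, 0.09 and 0.11 on the WKY arrays, and the median difference of the 19 genes was -0.07, with 6 above and 13 below 0. By the smallest p, Cd163 (0.26 ± 0.14) and Laptm5 (0.31 ± 0.30, with -0.01 ± 0.14 at its second probe) led the genes above 0, and Lyz2 and the dim probe of Siglech (-0.21 ± 0.12) those below. The 19 were read only at probes above 0 on all arrays, and Fcer1g, which lacked such a value on some arrays, was left out. Lyz2, the macrophage lysozyme, had signals of 2128, 2362 and 920 on the SHR arrays against 2847, 3033 and 5079 on the WKY arrays, and was the gene most like P2ry2 (r = 0.95). Like P2ry6, both had their lowest array in SHR 3 and their highest in WKY 3, as did P2rx4 and P2rx7. For P2ry2 and P2ry6 the r with the microglia and macrophage list was 0.81 and 0.85. It was 0.74 and 0.76 with oligodendrocyte markers and -0.85 and -0.77 with astrocyte markers, all as descriptions. The part of macrophage content in the P2ry2 and P2ry6 values was not tested.

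Position markers were read beside the labelled origin. Of 15 hindbrain markers 8 had values on all arrays, with 7 of them brighter than the dimmest 25% of probes and a median difference of 0.02. Of 7 forebrain markers 2 were measured, Emx2, which was among the dimmest 25%, and Nkx2-1, which was not. Of all 11709 named genes read this way, only 1246 were among the dimmest 25%. A brighter probe therefore cannot decide the origin of the cells.

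The other P2 genes of the family showed no called difference. Of 12 listed, P2rx1, P2rx5, P2rx6 and P2ry4 had values on all arrays, 3 above and 1 below 0 with 0 past either threshold. P2ry4, a UTP receptor, had signals of 488, 452 and 519 on the SHR arrays against 563, 553 and 521 on the WKY arrays. The strains did not overlap, by a margin of SHR 3 against WKY 3 smaller than the spread within either strain, and the difference was -0.17 ± 0.12. P2rx5 gave 0.01 ± 0.17. P2ry10, not above 0 on WKY 1, gave 0.38 ± 0.37 from the other 5 arrays.

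The rest of the nucleotide pathway was described from 7 lists, including the other P2 genes, with 78 of 101 listed genes measured. No gene passed the adjusted threshold, 5 were higher and 4 lower at an unadjusted p under 0.05 (11.5%), and the same share of all 11709 named genes was 6.7% (3.38% higher and 3.31% lower). The strains did not overlap at 17 of the 78, or 21.8%, beside 13.9% of all named genes. The median difference was -0.05, beside -0.00088 for all named genes.

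Among 14 measured genes of the list for nucleotide breakdown outside the cell, 5 were above and 9 below 0, with a median of -0.12. The list also holds Entpd5 of the endoplasmic reticulum and the lysophospholipase Enpp2, so its counts are not of extracellular breakdown alone. Enpp1, the ectoenzyme that cleaves ATP to AMP and pyrophosphate, had signals of 2181, 1320 and 2577 on the SHR arrays against 516, 972 and 739 on the WKY arrays. Every SHR array lay above every WKY array, and the difference was 1.44 ± 0.33 (adjusted p = 0.481 in limma). Its second probe agreed, without overlap, at 1.33 ± 0.28. Enpp3, a related ectoenzyme, gave 0.80 ± 0.23, also without overlap, and Enpp2, the lysophospholipase autotaxin, 0.09 ± 0.14.

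Of the enzymes below 0, Entpd5, a nucleoside diphosphatase of the endoplasmic reticulum, had signals of 1985, 1656 and 1268 on the SHR arrays against 2391, 2670 and 2699 on the WKY arrays, a difference of -0.68 ± 0.19. Entpd3, an ectonucleotidase of neurons, gave -0.29 ± 0.13, and Nt5e, which makes adenosine from AMP, gave -0.28 ± 0.16 and -0.32 ± 0.20 at its 2 probes. The strains did not overlap for Entpd5, Entpd3 and the brighter Nt5e probe, and none passed. With Enpp1 and Enpp3, that was 5 of the 14 genes of this list (35.7%), 2 higher and 3 lower in SHR. The share of all named genes was 13.9%. Marker genes of fibroblasts and meningeal cells were measured for 11 of 13 listed, with Col3a1 and Foxd1 lacking a probe of that symbol. They had a summed signal of 42804 to 49587 in SHR and 31364 to 39522 in WKY, without overlap. Of the 11, 8 were above and 3 below 0 with a median of 0.22, and 5 (45.5%) were higher and 0 lower at an unadjusted p under 0.05 in limma, against 6.7% of all named genes in either direction. Aldh1a2 (1.49 ± 0.14) and Slc6a13 (1.62 ± 0.34) were above 0 in this list and the dim probe of Igf2 (-0.39 ± 0.19) and Thy1 (-0.25 ± 0.52) below it, and the part of these cells in the Enpp values was not tested.

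**Figure D4:**
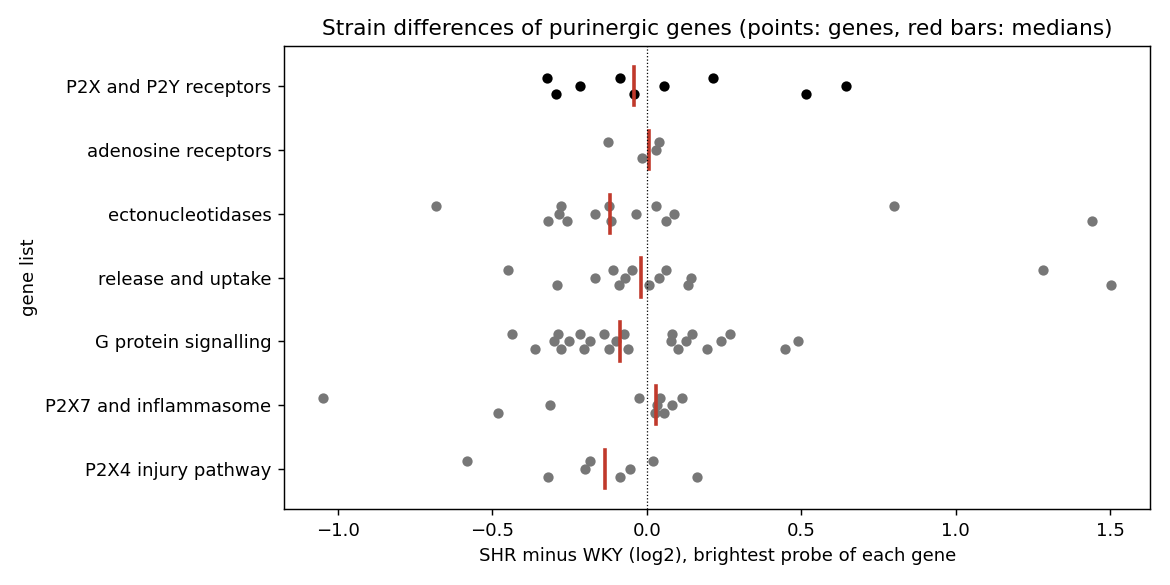
SHR minus WKY (log2) at the brightest probe of each gene, for the 9 measured receptors (black) and 6 lists of purinergic genes (grey), with red bars at the medians. Receptors lie between -0.32 and 0.64, and the points beyond 1 on the right are Enpp1 among the ectonucleotidases and Gjb6 and Gjb2 in the list of release and uptake.

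Of 14 genes of nucleotide release and uptake, 7 were above and 7 below 0, with a median of -0.02. The connexins Gjb6 and Gjb2 gave 1.28 ± 0.38 and 1.503 ± 0.56, and the dim second probe of Gjb2 0.38 ± 0.58. Gjb6 did not overlap between strains and Gjb2 did. The vesicular nucleotide transporter Slc17a9 gave 0.14 ± 0.19. Lrrc8a, a subunit of volume-regulated anion channels, gave -0.45 ± 0.15 without overlap, the pannexin Panx2 -0.29 ± 0.16 and the transporter Abcc6 -0.17 ± 0.17. The strains did not overlap at 2 of the 14 genes (14.3%), near the 13.9% of all named genes.

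The 24 measured genes of P2Y signalling through G proteins had a median of -0.09, with 10 above and 14 below 0. Of the genes that carry the Gq signal of P2Y1, P2Y2 and P2Y6, Itpr1, an inositol trisphosphate receptor, gave 0.45 ± 0.17, Itpr3 0.27 ± 0.15 and Gnaq, the alpha subunit of Gq, 0.24 ± 0.15. Gna11, a second alpha subunit of this class, gave -0.44 ± 0.18 and -0.33 ± 0.17 at its 2 probes. Adcy8, an adenylyl cyclase, gave -0.30 ± 0.12, and Prkca, a protein kinase C, -0.36 ± 0.16. Itpr1, Gna11 and Adcy8 were the 3 of the 24 with an unadjusted p under 0.05 (12.5%, beside 6.7% of all named genes). None passed after adjustment in limma. The strains did not overlap at 7 of the 24 (29.2%, beside 13.9% of all named genes), 2 higher and 5 lower in SHR.

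The lists of the P2X7 and P2X4 pathways had 0 genes at an unadjusted p under 0.05 in limma. In the P2X7 and inflammasome list of 10 measured genes 6 were above and 4 below 0, with a median of 0.03. Txnip gave 0.12 ± 0.13, the adaptor Pycard 0.08 ± 0.22 and the kinase Nek7 0.06 ± 0.21. Il1rn, the interleukin 1 receptor antagonist, gave -1.05 ± 0.57 with WKY 3 at 10650 and the other arrays between 1702 and 4144, Il18 gave -0.31 ± 0.17 and Il1b -0.48 ± 0.57. In the P2X4 list of 8 genes 2 were above and 6 below 0, with a median of -0.13. Above 0 were the transcription factor Irf8 at 0.02 ± 0.14 and the chloride transporter Slc12a5 at 0.16 ± 0.39. Irf5 at -0.32 ± 0.15, the kinase Lyn at -0.18 ± 0.13 and the dim Bdnf probe at -0.58 ± 0.29 were below it.

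The 4 adenosine receptors, which bind the end product of this breakdown, had a median difference of 0.0075 with 2 above and 2 below 0. Adora1 and Adora2a gave 0.04 ± 0.14 and 0.03 ± 0.17 at their brightest probes, with other probes of both below 0 (-0.26 and -0.32). Adora2b and Adora3 gave -0.13 ± 0.12 and -0.02 ± 0.14 at their brightest probes. The second Adora2b probe lay above 0 (0.05 ± 0.17), and no strain separation was seen for any of the 4 receptors.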

How the data were processed

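Expression was read from single-colour CodeLink rat arrays, 3 per strain, each from RNA of 3 pooled dishes. Per the labels, the authors extracted background-subtracted spot intensity with the CodeLink software, stated an exclusion of spots under the negative controls, and normalized by the quantile method; no software version is given for these steps. The deposited series table holds linear intensity with a median of 520 on every array and was the main source. The per-sample tables, with medians of 461 to 608 over spots above 0, served as alternatives. Values not above 0 were set to missing, log2 was taken, and a probe was kept when 1 strain had 3 valid values and the other 2 or more (33249 probes, 600 untested). Arrays correlated at 0.969 to 0.980 within and 0.964 to 0.977 between strains.

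All probes were fitted with limma 3.58.1 in R 4.3.3 (SHR minus WKY, two-sided, Benjamini-Hochberg over all probes, threshold 0.05), a step tested on simulated data. Intervals are 95% limma intervals, and the number of arrays limits their precision. Of the probes, 16753 have 1 gene symbol in the platform annotation, 165 several and 16931 none. Gene lists were read at the brightest complete probe of each gene. All 10 receptors were named, with up to 3 genes per direction of each pathway list by smallest p, and the most alike list gene where it is set beside a receptor. Cell type lists set beside a receptor or the Enpp genes name up to 2 genes per direction in the same way. Members and lists were chosen with earlier results of these data known. Alternatives covered the source of values, normalization, filter, dim probes, offset, prior, replicate block, 1 probe per gene, threshold and single arrays left out, and the astrocyte list without Gjb6 was added after seeing the data. Figures were drawn with matplotlib 3.10.9.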

Additional observations from a re-analysis of the deposited data

How the results depend on the processing

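No receptor probe passed an adjusted p of 0.05 in any setting run, with the smallest adjusted p at 0.363 (P2rx3 without SHR 2). Of the 11 receptor probes, 7 kept their direction in every setting in which they were fitted. The brighter P2ry1 probe lay between 0.44 and 0.63, with unadjusted p between 0.0055 and 0.044. Those that turned were P2rx7 (0.14) and P2ry12 (0.098) in unnormalized intensities, where the median of all probes shifted to 0.12, and in fits without single arrays P2ry12 (-0.28 to 0.045), P2ry14 (-0.049 to 0.16) and the dimmer P2rx3 probe (-0.33 to 0.0091), which stood at -0.64 to -0.87 in the 3 settings from the per-sample tables. The P2ry2 difference was -0.14 and that of P2rx4 -0.06 in unnormalized intensities. The dim probes could not be fitted without the dimmest 25%. Over all probes 5 passed with values valid on all 6 arrays, 18 without the dimmest 25%, 17 with an offset of 50 units before log2, 28 with an intensity trend and robust prior, 9 with 1 probe per named gene and 13 at an adjusted p of 0.10, and 0 in the other settings. Among the list genes Aldh1a2, a fibroblast and meningeal marker, passed in 3 settings: without the dimmest 25% (1 of 155 genes, adjusted p = 0.0205), with an offset (1 of 168, 0.0257) and with the trend and robust prior (1 of 168, 0.0053), all in limma. Of unadjusted p under 0.05, 47.6% were higher in SHR, against 64.6% in unnormalized and 33.6% in median-centred intensities. A replicate block, which pairs pools by their number, left 0 probes past the threshold, 0 of them receptors, with 2798 at an unadjusted p under 0.05. Same-numbered arrays deviated together with r of 0.0011, 0.22 and -0.13, beside -0.25 to 0.27 for other pairs of an SHR and a WKY array. The numbers were not taken to pair the pools, though 3 such values cannot exclude a pairing. Of 16 list medians 10 changed sign in at least 1 setting. For none of these was the cause tested.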
